A study of Mus musculus with 22 samples.

Results

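Cxcr2, Cxcr4, Csf3r and Csf3 were followed in G-MDSCs, the granulocytic class of myeloid-derived suppressor cells, which resemble neutrophils and dampen T cell responses. The cells came from mammary tumours of treated mice. The 4 genes were taken by name from the 655 endogenous genes of a NanoString mouse myeloid panel, as the receptors that govern neutrophil release and retention, with the growth factor that acts through one of them. The tumours came from NT2.5 cells, a line derived from a spontaneous mammary tumour, of which 50000 were placed in the mammary fat pad of 7- to 8-week-old female neu-N mice (FVB-Neu-N). Treatment started after 3 days and ran for 3 weeks, and Ly6G-positive cells were then selected magnetically from the dissociated tumours.

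All 5 groups carried these tumours. The entinostat group (4 samples) received entinostat, which inhibits histone deacetylases of class I, daily by mouth at 5 mg/kg. The 3 combinations (4 samples each) added anti-PD-1, anti-CTLA-4 or, in the triple combination, both antibodies to entinostat, each at 100 µg per mouse. Vehicle mice (6 samples) received methylcellulose and isotype antibodies, and methylcellulose at 0.5% is listed for all 5 groups. No group received an antibody without entinostat, and whether an anti-HER2 antibody was also given to these animals is not stated. The labels do not tie the samples to separate animals, so p-values below measure only the spread between samples, which may be technical.

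CXCR2 is the receptor for chemokines such as Cxcl1 and Cxcl2 that draw mature neutrophils out of the bone marrow and into inflamed tissue. CXCR4 binds CXCL12 and holds neutrophils in the marrow, and its signal opposes that of CXCR2 there. Granulocyte colony-stimulating factor (G-CSF, encoded by Csf3) acts through its receptor (encoded by Csf3r) to drive neutrophil production and to shift that balance towards release, and many tumours that recruit suppressive neutrophils secrete it.

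The promoters of the 3 receptor genes are shown because their transcripts moved together across the samples (below). How alike the sequences are was not measured. Each is 250 bases before and 50 bases after the start site, from RefSeq on GRCm38.p6, in the direction of transcription. Capitals mark matches, on either strand, to AGGAAG (the core of sites for ETS factors, a family that includes the myeloid regulator PU.1), GGGCGG (the GC box) and TATAAA (the TATA box), motifs chosen with the sequences in view.
Cxcr2, chr1:74153744-74154043, plus strand: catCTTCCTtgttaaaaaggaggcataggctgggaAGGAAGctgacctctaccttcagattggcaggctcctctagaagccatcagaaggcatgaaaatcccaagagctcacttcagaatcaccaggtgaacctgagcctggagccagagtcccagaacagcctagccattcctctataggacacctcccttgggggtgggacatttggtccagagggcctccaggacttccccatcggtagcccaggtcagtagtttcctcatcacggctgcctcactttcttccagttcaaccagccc
Cxcr4, chr1:128592250-128592549, minus strand: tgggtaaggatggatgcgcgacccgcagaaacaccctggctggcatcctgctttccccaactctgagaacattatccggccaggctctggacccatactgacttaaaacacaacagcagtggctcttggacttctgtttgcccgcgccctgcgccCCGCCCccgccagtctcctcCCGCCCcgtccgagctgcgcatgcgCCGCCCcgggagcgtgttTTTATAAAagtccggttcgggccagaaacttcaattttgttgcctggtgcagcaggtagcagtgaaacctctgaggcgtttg
Csf3r, chr4:126024409-126024708, plus strand: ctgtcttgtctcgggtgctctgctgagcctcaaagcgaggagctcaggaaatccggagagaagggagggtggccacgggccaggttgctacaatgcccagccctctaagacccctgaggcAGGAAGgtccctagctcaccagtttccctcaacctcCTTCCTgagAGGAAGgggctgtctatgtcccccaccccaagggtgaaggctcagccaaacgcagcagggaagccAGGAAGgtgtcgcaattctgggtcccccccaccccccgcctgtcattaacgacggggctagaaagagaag

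The Cxcr2 window held 2 matches to AGGAAG and the Csf3r window 4, a motif present in 35.4% of 32851 mouse promoter windows of the same length, and the Cxcr4 window held none. The Cxcr4 window held 3 matches to GGGCGG (in 35.7% of windows) and an overlapping pair of matches to TATAAA on opposite strands (in 13.6%). Neither of these motifs was matched in the windows of Cxcr2 and Csf3r. Cxcr4 had 20 CG dinucleotides, Csf3r 9 and Cxcr2 2, against a median of 7 over all windows. A match is a description of the letters and not a bound site. No promoter is shown for Csf3.

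In each sample a fluorescent barcode was counted for each transcript without amplification, and the deposited values are normalized counts. Barcode counts were recovered from these values as whole multiples of a step fitted in each sample. They came to 23296 to 443796 per sample (median 179364). A background limit of 29.3 normalized counts was passed by 420 endogenous genes in at least 1 group mean, taken on the log2 scale. All 4 genes passed it in every sample. In the recovered counts Csf3 stood at 15 to 152 barcode counts per sample, Cxcr2 at 43 to 491, Csf3r at 63 to 736 and Cxcr4 at 89 to 1151. Probes differ in efficiency and no length scale applies, so levels were compared between samples and not between genes. In cells sorted as a population, fewer cells of a type and less RNA per cell cannot be told apart.

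Several samples stood apart or carried uncertain labels. Vehicle sample 2 and anti-CTLA-4 combination sample a had receptor levels well above the rest of their groups. Samples a and b of the anti-CTLA-4 combination and of the triple combination come from columns that share a name, so their own numbers are unknown. In lane order, the neighbours of triple sample a were vehicle samples on either side, and vehicle sample 3 came next to triple sample 4. All entinostat and anti-PD-1 combination samples were on cartridge 1, all anti-CTLA-4 combination samples on cartridge 2, and vehicle had 3 on each. Of the neutrophil markers, S100a9 averaged 18565, 15777, 5209 and 9488 normalized counts in the entinostat, anti-PD-1, anti-CTLA-4 and triple groups and 5879 in vehicle, whereas Ly6g, the gene of the sorting antigen, averaged 19.2, 6.81, 4.37 and 8.27, and 5.58 in vehicle, all below the background limit. Cdh1, the epithelial cadherin and the only epithelial marker of those listed that the panel holds, was present in every group, at means of 804, 878, 1125 and 985 normalized counts in the same treated groups and 1077 in vehicle.

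**Figure D1:**
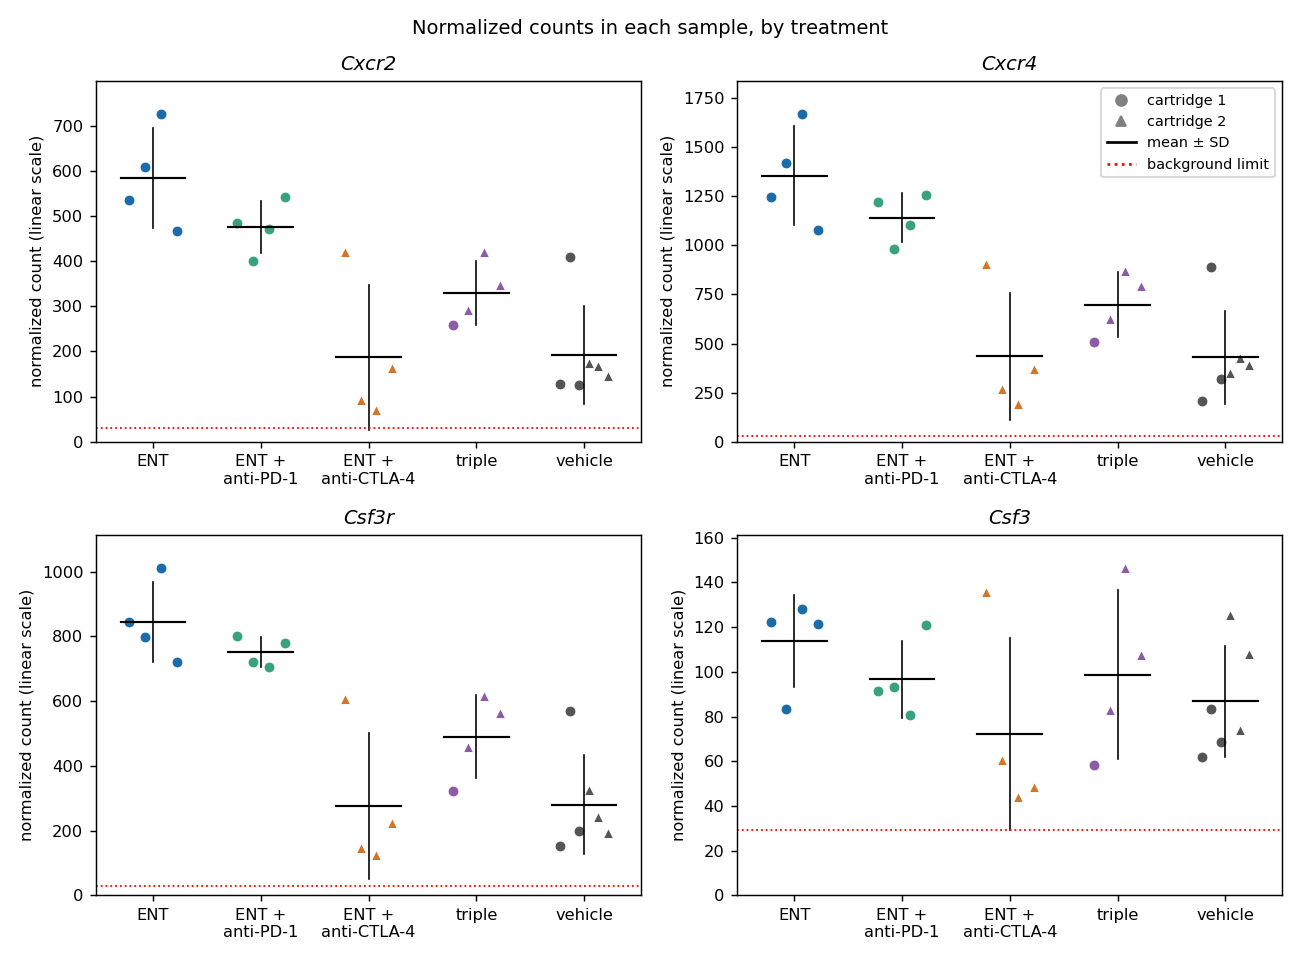
Normalized counts (linear y axes) of the 4 genes in each of the 22 samples, by treatment (ENT, entinostat). Circles are cartridge 1, triangles cartridge 2, black bars the mean ± SD and the red dotted line the background limit of 29.3. The receptors stand highest in entinostat and the anti-PD-1 combination, and Csf3 overlaps between all groups.

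The first question was what entinostat did to these transcripts. All 3 receptors were higher in entinostat than in vehicle, by 3.29- to 3.44-fold, while Csf3 did not pass the test. Calls here and below are from limma on log2(normalized count + 1), with Benjamini-Hochberg adjustment over the 420 genes and a threshold of 0.05. In this comparison 40.0% of all tested genes were called, 36.2% higher and 3.81% lower, so a call by itself is not particular to the receptors.

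Cxcr2 had 535, 608, 726 and 468 normalized counts in the entinostat samples, against a lowest value of 126, a median of 157 and a highest of 409 in the 6 vehicle samples. All 4 entinostat samples exceeded every vehicle sample, and 17.1% of all tested genes likewise did not overlap. The highest vehicle value was that of sample 2, the other vehicle samples reaching 175. The log2 fold change was 1.72 ± 0.38 (SE), or 3.29-fold (95% interval 1.90 to 5.71), with an adjusted p of 0.00769 in limma.

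Cxcr4 had 1247, 1418, 1669 and 1079 normalized counts in the entinostat samples, against a lowest value of 205, a median of 372 and a highest of 890 in vehicle. The groups again did not overlap, as was the case for 17.1% of all tested genes in this comparison, and sample 2 was again the highest of vehicle. The log2 fold change was 1.78 ± 0.36, or 3.44-fold (2.04 to 5.81), with a limma adjusted p of 0.00558, and its p ranked 6 among the 420 genes.

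Csf3r had 845, 798, 1013 and 722 normalized counts in the entinostat samples, against a lowest value of 151, a median of 221 and a highest of 570 in vehicle. As with the chemokine receptors and 17.1% of all tested genes, the groups did not overlap, and no vehicle sample reached the lowest entinostat sample. Its log2 fold change was 1.72 ± 0.37, or 3.30-fold (1.92 to 5.65), with a limma adjusted p of 0.00769.

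Csf3 had 122, 83.6, 128 and 121 normalized counts in the entinostat samples, against a lowest value of 62.0, a median of 78.6 and a highest of 125 in vehicle. The groups overlapped, with entinostat sample 2 at the level of vehicle sample 2 (83.5). Csf3 differed by a log2 fold change of 0.41 ± 0.29, or 1.33-fold (0.870 to 2.04), with a limma adjusted p of 0.260. Within cartridge 1 alone it was 0.66 with an adjusted p of 0.0360, and with each sample centred on the median of the tested genes its sign turned, to -0.13 (adjusted p 0.620).

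The receptor calls against vehicle held in all 22 fits that left out 1 sample, and without vehicle sample 2 the log2 fold changes were 1.96 for Cxcr2, 2.02 for Cxcr4 and 1.96 for Csf3r. Within cartridge 1 they were 1.61 for Cxcr2, 1.78 for Cxcr4 and 1.69 for Csf3r (limma adjusted p 0.0186 to 0.0195). Under the deposited scaling the 420 tested genes had a median difference of 0.50 on the log2 scale, and changes read relative to it are smaller. With each sample centred on its median, the receptors remained higher by 1.18 (Cxcr2), 1.24 (Cxcr4) and 1.18 (Csf3r), with limma adjusted p-values of 0.00550 to 0.00808, and the calls over all genes were 95 higher and 81 lower, in place of 152 higher and 16 lower.

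Marker genes of leukocytes moved in the same direction. All 5 tested leukocyte markers (such as Ptprc, which encodes CD45) were called higher in entinostat than in vehicle, with a median log2 fold change of 1.49. So were all 9 tested neutrophil markers, with a median of 1.83. The share called higher over all tested genes was 36.2%, and their median was 0.50. The summed level of the leukocyte markers ran from 3310 to 4976 normalized counts in entinostat and from 841 to 3707 in vehicle, and Cdh1 was lower in entinostat by 0.41 ± 0.15 on the log2 scale (adjusted p 0.0418). Summed monocyte and macrophage markers ran from 800 to 2574 in entinostat and from 383 to 2494 in vehicle. None of the 5 tested genes of that list was called, although their median log2 fold change was 0.66. Ms4a1, a B cell gene and the only listed lymphocyte gene on the panel, averaged below the background limit in every group.

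Scaled to the 5 leukocyte markers, an alternative chosen after the data had been seen, the receptors no longer passed the test against vehicle. The log2 differences were then 0.27 for Cxcr2 (adjusted p 0.288), 0.33 for Cxcr4 (0.217) and 0.27 for Csf3r (0.184). On that scale Csf3 was lower in entinostat, by 1.04 on the log2 scale (-1.04, adjusted p 0.0138). In that fit 229 of 420 genes were called lower and 4 higher.

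The combination of entinostat with anti-PD-1 asks whether the same transcripts changed when this antibody was present. The 3 receptors were again higher than in vehicle, by 2.70- to 2.96-fold, and Csf3 was not called. Of all tested genes 21.9% were called in this comparison, 20.5% as higher.

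Cxcr2 had 485, 401, 471 and 542 normalized counts in the anti-PD-1 combination, and 1 of these fell below vehicle sample 2 (409), so the groups overlapped. The log2 fold change against vehicle was 1.43 ± 0.38, with a limma adjusted p of 0.0239. Cxcr4 had 1221, 980, 1104 and 1258 normalized counts, all above every vehicle sample.

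For Cxcr4 the log2 fold change against vehicle was 1.55 ± 0.36 (limma adjusted p 0.0207). Csf3r had 802, 720, 706 and 780 normalized counts, also above every vehicle sample, and a log2 fold change of 1.56 ± 0.37 (adjusted p 0.0207). Csf3 had 91.3, 93.4, 80.6 and 121 normalized counts, within the range of vehicle, and a log2 fold change of 0.18 ± 0.29 (adjusted p 0.666). Non-overlap with vehicle was seen for 9.52% of all tested genes.

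These calls were less stable than those for entinostat alone. Of 22 fits that left out 1 sample, Cxcr2 was called in 15, Csf3r in 16 and Cxcr4 in 17, and all 3 were lost without vehicle sample 1 or 4 or without sample 1, 2 or 4 of the combination. In addition Cxcr2 and Csf3r were lost without vehicle sample V2, and Cxcr2 without vehicle sample V1, at adjusted p-values up to 0.0862. With cartridge as a block the adjusted p was 0.0508 for each receptor, and within cartridge 1 it was 0.0707, with log2 fold changes of 1.33 (Cxcr2), 1.55 (Cxcr4) and 1.53 (Csf3r). The leukocyte markers moved here too, 4 of 5 called higher against 20.5% of all tested genes. Scaled to these markers, the receptors differed from vehicle by 0.14 (Cxcr2, adjusted p 0.586), 0.25 (Cxcr4, 0.346) and 0.27 (Csf3r, 0.183).

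Set against entinostat alone, adding anti-PD-1 gave no call for any of the 4 genes, and none for any of the 420 genes tested (7 at an unadjusted p under 0.05), so percent called was 0. The groups overlapped for all 4 genes, and 4.76% of all tested genes did not overlap. The log2 differences were -0.29 for Cxcr2 (95% interval -1.16 to 0.58), -0.23 for Cxcr4 (-1.06 to 0.59), -0.16 for Csf3r (-1.01 to 0.69) and -0.23 for Csf3 (-0.90 to 0.44).

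**Figure D2:**
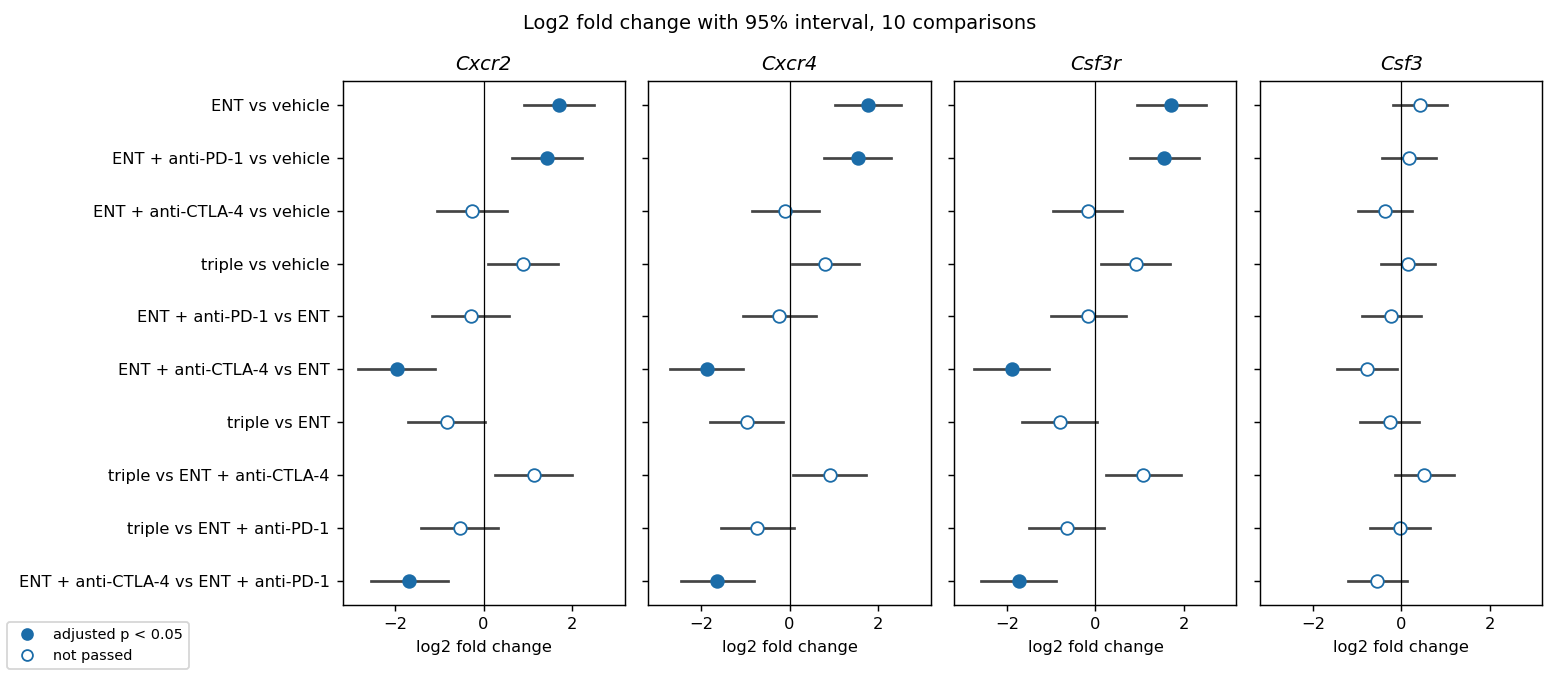
Log2 fold change of each gene (x axes) in the 10 comparisons between groups (rows; ENT, entinostat), with 95% intervals from limma; filled circles passed an adjusted p of 0.05. Filled circles lie in 4 comparisons for Cxcr2, Cxcr4 and Csf3r, and Csf3 has none.

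In the combination of entinostat with anti-CTLA-4 the receptors were close to vehicle and well below entinostat alone. Of 4 samples, 3 had low levels of all 3 receptors and sample a had high ones. Sample a also stood apart in summed markers of leukocytes (3065 normalized counts, against 614 to 1009 in the other 3), neutrophils (21411 against 3358 to 7150), monocytes and macrophages (1496 against 259 to 442), fibroblasts (1213 against 565 to 627) and endothelium (420 against 20.9 to 75.5). Its Cdh1 was lower, at 764 against 1211 to 1310, and the part of these cells in its receptor levels was not tested. Against entinostat alone 48.3% of all tested genes were called, 42.6% as lower, and the 3 receptors were among these.

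Cxcr2 had 420 normalized counts in sample a and 92.3, 71.3 and 164 in samples 1, b and 3 of the anti-CTLA-4 combination, against 468 to 726 in entinostat. No sample of the combination reached the lowest entinostat sample, although sample a came near it. The log2 fold change against entinostat was -1.97 ± 0.42, a ratio of 0.255, with a limma adjusted p of 0.00257.

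Cxcr4 had 905 normalized counts in sample a and 270, 194 and 368 in samples 1, b and 3, against 1079 to 1669 in entinostat. The groups did not overlap, which held for 25.2% of all tested genes. The log2 fold change was -1.87 ± 0.40, a ratio of 0.273, with a limma adjusted p of 0.00257.

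Csf3r had 607 normalized counts in sample a and 147, 124 and 225 in samples 1, b and 3, against 722 to 1013 in entinostat. It followed the chemokine receptors sample by sample, with sample b lowest. For Csf3r the log2 fold change was -1.90 ± 0.41, a ratio of 0.268, with a limma adjusted p of 0.00257.

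Csf3 had 136 normalized counts in sample a and 60.8, 44.1 and 48.5 in samples 1, b and 3, against 83.6 to 128 in entinostat. Sample a exceeded every entinostat sample and the other samples lay below all of them. Its log2 fold change was -0.78 ± 0.32 (limma adjusted p 0.0513). Without sample a it was -1.13 with an adjusted p of 0.00196, with cartridge as a block -1.41 (0.0227), and with median centring -0.06 (0.817).

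Entinostat and the anti-CTLA-4 combination were on different cartridges, so for this pair cartridge and group are told apart only through the vehicle and triple samples, which lay on both (3 and 3 of vehicle, 1 and 3 of triple on cartridges 1 and 2). With cartridge as a block, the receptor differences were -1.98 (Cxcr2), -2.07 (Cxcr4) and -2.11 (Csf3r), with limma adjusted p-values of 0.0221 to 0.0240. Without sample a they were -2.48, -2.31 and -2.38. All 5 leukocyte markers and all 9 neutrophil markers were called lower in the anti-CTLA-4 combination than in entinostat, against 42.6% of all tested genes. Their medians were -2.04 and -2.22 against -0.67 over all genes, and Cdh1 was higher by 0.46 ± 0.17 (adjusted p 0.0348). Scaled to the leukocyte markers, the receptor differences were 0.05 (Cxcr2, adjusted p 0.853), 0.15 (Cxcr4, 0.631) and 0.12 (Csf3r, 0.600), and Csf3 was higher in the combination by 1.24 (0.00469). On that scale any gene that fell less than these markers counts as higher. Under the deposited scaling Csf3 was lower (-0.78), and both it and the median over all genes (-0.67) fell less than the markers.

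Against the anti-PD-1 combination, 31.0% of all tested genes were called, 29.5% as lower, and the anti-CTLA-4 combination was lower by 1.69 on the log2 scale for Cxcr2 (-1.69 ± 0.42, limma adjusted p 0.00848). For Cxcr4 the difference was -1.64 ± 0.40 (adjusted p 0.00848), and for Csf3r it was -1.74 ± 0.41 (0.00757). Csf3 differed by -0.55 ± 0.32 (0.210). Cxcr2 sample a (420) lay above the lowest sample of the anti-PD-1 combination (401), and for Cxcr4 and Csf3r the groups did not overlap, as for 15.2% of all tested genes. The receptor calls were lost with only these groups in the fit (adjusted p 0.0573 to 0.0577) and with cartridge as a block (0.0501 to 0.0555).

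Against vehicle, no gene of the 420 was called in the anti-CTLA-4 combination (6 at an unadjusted p under 0.05 in limma), so percent called was 0. The log2 differences were -0.25 for Cxcr2 (95% interval -1.05 to 0.54), -0.09 for Cxcr4 (-0.85 to 0.66), -0.18 for Csf3r (-0.96 to 0.60) and -0.37 for Csf3 (-0.98 to 0.24). Without sample a they were -0.76, -0.53, -0.66 and -0.72, with adjusted p-values of 0.140 to 0.274. Within cartridge 2 the differences of Cxcr2, Cxcr4 and Csf3r were -0.15, -0.09 and -0.15.

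The triple combination lay between these groups. Cxcr2 had 258, 291, 420 and 347 normalized counts in samples a, b, 2 and 4, Cxcr4 had 508, 622, 870 and 794, and Csf3r had 324, 458, 616 and 564. For each receptor, sample a was the lowest and sample 2, the sample of fewest barcode counts (23296), the highest, and vehicle sample 2 was the only vehicle sample above the lowest triple sample for Cxcr2 and Cxcr4. Csf3 had 58.2, 82.9, 147 and 107 normalized counts in the same samples. The highest of these, in sample 2, rests on 15 barcode counts, with an exact 95% Poisson interval of 82.1 to 242 normalized counts that covers counting error only.

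Against vehicle the log2 fold changes were 0.89 ± 0.38 for Cxcr2 (limma adjusted p 0.333), 0.82 ± 0.36 for Cxcr4 (0.333), 0.91 ± 0.37 for Csf3r (0.320) and 0.15 ± 0.29 for Csf3 (0.754). None was called, nor was any of the 420 genes (59 at an unadjusted p under 0.05), so percent called was 0. Without vehicle sample 2 the receptors differed by 1.13, 1.05 and 1.14, each with an adjusted p of 0.0859. Within cartridge 2 they differed by 1.10, 0.96 and 1.12, and within cartridge 1, which holds only triple sample a, by 0.45, 0.39 and 0.32. Sample weights from limma brought all 3 receptors past the threshold (adjusted p 0.00549 to 0.0163), in a fit that called 115 of the 420 genes higher and 11 lower.

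Against entinostat alone the triple combination differed by -0.83 ± 0.42 for Cxcr2, -0.97 ± 0.40 for Cxcr4 and -0.81 ± 0.41 for Csf3r (limma adjusted p 0.340 to 0.394), and by -0.26 ± 0.32 for Csf3 (0.659). The triple and entinostat samples did not overlap for any of the 3 receptors, and the same held for 20.7% of all tested genes, but no gene was called (53 at an unadjusted p under 0.05). Against the anti-PD-1 combination the differences were -0.54 (Cxcr2), -0.73 (Cxcr4), -0.65 (Csf3r) and -0.03 (Csf3), with no call for any gene (33 at an unadjusted p under 0.05). There Cxcr4 and Csf3r did not overlap between the groups, as for 15.2% of all tested genes.

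Against the anti-CTLA-4 combination the triple combination differed by 1.14 ± 0.42 for Cxcr2, 0.91 ± 0.40 for Cxcr4, 1.09 ± 0.41 for Csf3r and 0.52 ± 0.32 for Csf3, with limma adjusted p-values of 0.160, 0.170, 0.160 and 0.259. The groups overlapped for all 4 genes, and 2.14% of all tested genes did not overlap. No gene of the 420 was called (115 at an unadjusted p under 0.05). Without anti-CTLA-4 combination sample a, all 4 genes were called, at 1.65 for Cxcr2, 1.35 for Cxcr4, 1.57 for Csf3r and 0.87 for Csf3 (adjusted p 0.00347 to 0.0186). In that fit 180 of the 420 genes were called higher and 11 lower. Within cartridge 2 the receptors differed by 1.25, 1.05 and 1.27 in the order above (adjusted p 0.185).

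The interaction of the antibodies under entinostat, which asks whether the change on adding both differs from the sum of their separate changes, was 1.43 ± 0.59 for Cxcr2 and 1.14 ± 0.56 for Cxcr4. It was 1.25 ± 0.58 for Csf3r and 0.75 ± 0.45 for Csf3. None passed the test (limma adjusted p 0.252 to 0.281), nor did any gene (81 at an unadjusted p under 0.05). Without anti-CTLA-4 combination sample a, all 4 passed it, at 1.93 for Cxcr2, 1.58 for Cxcr4 and 1.73 for Csf3r (adjusted p for all 4 genes 0.0145 to 0.0370). In that fit 145 of the 420 genes were called higher and 7 lower.

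By group, Cxcr2 stood at 584 ± 111 in entinostat, 475 ± 57.8 in the anti-PD-1 combination, 329 ± 71.3 in the triple combination, 187 ± 160 in the anti-CTLA-4 combination and 192 ± 108 in vehicle (normalized counts, SD, n = 4, 4, 4, 4 and 6). Cxcr4 stood at 1353 ± 252, 1141 ± 126, 698 ± 164, 434 ± 322 and 430 ± 238, and Csf3r at 844 ± 123, 752 ± 46.4, 490 ± 129, 276 ± 225 and 281 ± 154, in the same groups. The means of every receptor fell in the order entinostat, anti-PD-1 combination, triple combination, with vehicle and the anti-CTLA-4 combination lowest and close together, and no neighbours in that order passed the test against each other. For Csf3 the means were 114 ± 20.4, 96.6 ± 17.3, 98.8 ± 37.7, 72.3 ± 43.0 and 86.8 ± 24.8. The F test over the 5 groups gave limma adjusted p-values of 0.00547 for Cxcr2, 0.00513 for Cxcr4, 0.00513 for Csf3r and 0.319 for Csf3, with 33.1% of all tested genes called.

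Over the 22 samples Cxcr2 ranged 10.2-fold, Cxcr4 8.59-fold, Csf3r 8.16-fold and Csf3 3.33-fold from lowest to highest. The ratio of Cxcr2 to Cxcr4, the receptors of release and retention, varied less than either gene, with an SD of 0.18 over the 22 samples on the log2 scale, against 0.96 for Cxcr2 and 0.95 for Cxcr4. On the log2 scale it averaged -1.21 ± 0.011 in entinostat, -1.27 ± 0.054 in the anti-PD-1 combination, -1.32 ± 0.21 in the anti-CTLA-4 combination, -1.08 ± 0.090 in the triple combination and -1.15 ± 0.28 in vehicle (SD). Group means thus differed by less than the SD of vehicle. The height of the ratio is arbitrary, since the probes differ.

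In the entinostat samples this ratio had an SD of 0.011, which is less than counting error alone would give. Cxcr2 in entinostat sample 4, for example, rests on 208 barcode counts, with a 95% Poisson interval of 406 to 536 normalized counts. The closeness of these 4 ratios is therefore not read further. The widest spread was in vehicle, from -1.44 to -0.68. Ratios of Cxcr2 to Csf3r and of Cxcr4 to Csf3r were similarly tight, with SDs of 0.16 and 0.19 over the 22 samples.

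Csf3 did not keep a fixed ratio to its receptor. The log2 ratio of Csf3 to Csf3r averaged -2.90 ± 0.29 in entinostat, -2.97 ± 0.21 in the anti-PD-1 combination, -1.79 ± 0.47 in the anti-CTLA-4 combination, -2.35 ± 0.19 in the triple combination and -1.59 ± 0.65 in vehicle. All entinostat and anti-PD-1 combination samples lay below the anti-CTLA-4 combination, the lowest sample of which stood at -2.21, and vehicle sample 2 (-2.77) lay among them. These ratios are described and were not tested.

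**Figure D3:**
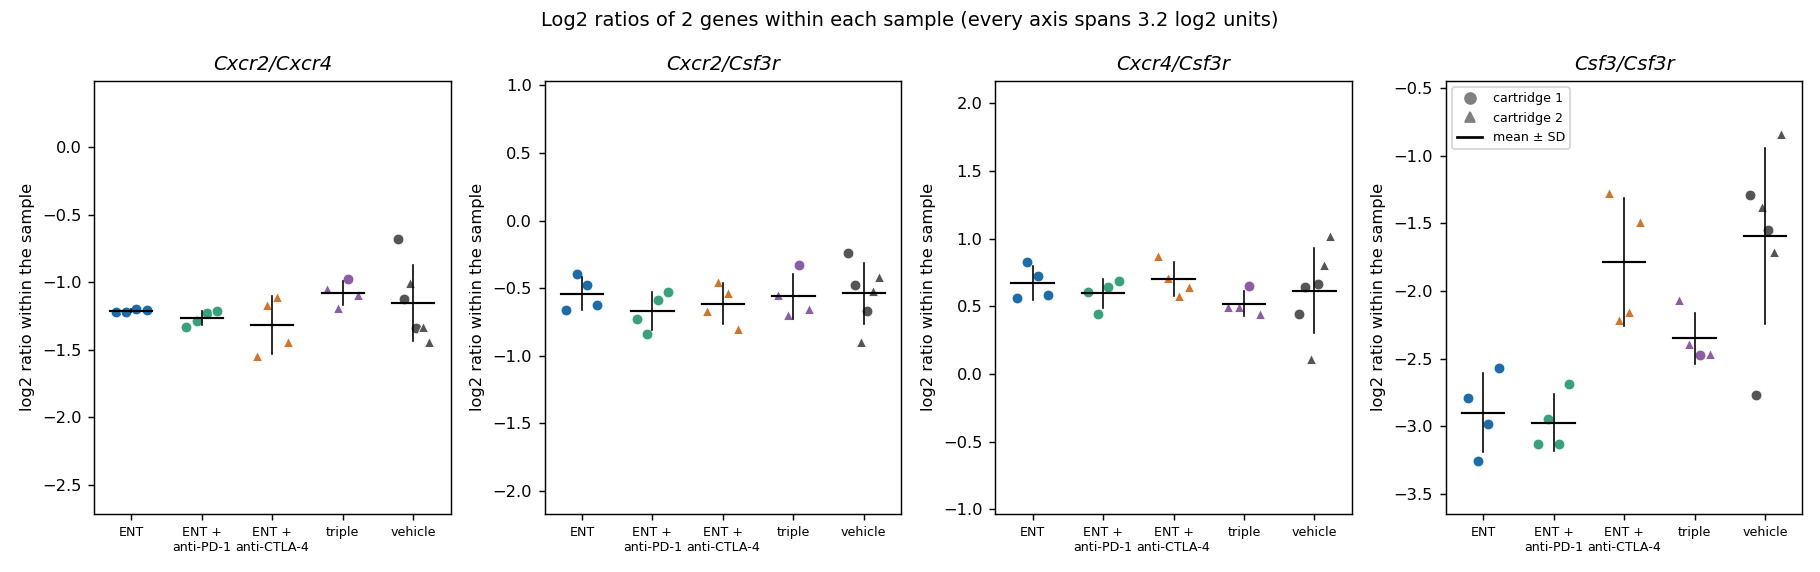
Log2 ratio of each gene pair within each sample (y axes, each spanning 3.2 units), by treatment, with the mean ± SD; circles are cartridge 1 and triangles cartridge 2. Ratios among the 3 receptors stay level over the groups, and the ratio of Csf3 to Csf3r runs from -3.26 to -0.84.

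Across the 22 samples Pearson's r between log2 levels was 0.985 for Cxcr2 and Csf3r, 0.982 for Cxcr2 and Cxcr4 and 0.981 for Cxcr4 and Csf3r, as a description of samples that share their treatments, cartridges and scaling. Within groups, after removal of the group means, these were 0.960, 0.956 and 0.946. Csf3 had r of 0.676, 0.665 and 0.703 with Cxcr2, Cxcr4 and Csf3r, near the median of 0.597 over all genes, and of -0.017, -0.041 and 0.016 once each sample was centred on its median.

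The genes most like each member were found among 419 others by r. For Cxcr2 they were Csf3r, Cxcr4, Selplg (which encodes the selectin ligand PSGL-1, used in rolling), Clec7a (the fungal receptor dectin-1) and Cebpb (a transcription factor of emergency granulopoiesis), at r of 0.973 to 0.985. For Cxcr4 they were Cxcr2, Csf3r, Mmp9 (a gelatinase of neutrophil granules), Myd88 (the adaptor of Toll-like receptors) and Cebpb, and for Csf3r they were Cxcr2, Cxcr4, Clec5a (a myeloid lectin receptor), Ptprc and Dusp2 (a phosphatase of MAP kinases). For Csf3 they were Cebpd, Nfatc1, Csf2ra, Cd40 and Nod2, at r of 0.838 to 0.874. High r was common, since 19.6% of the other genes exceeded 0.9 with Cxcr2, 18.6% with Cxcr4, 22.7% with Csf3r and none with Csf3.

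With centring, Csf3r and Cxcr4 were still the closest to Cxcr2, at 0.969 and 0.962, followed by Selplg, S100a9 (a subunit of calprotectin) and Clec7a, and 7.16% of genes exceeded 0.9. The list for Csf3r did not change. The centred list for Csf3 shared Nod2 and Cebpd with the first and otherwise held Mx1 (an interferon-induced gene), Cldn1 (a tight junction claudin) and Tspan8 (a tetraspanin), with r at most 0.651.

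The receptors also followed the leukocyte markers closely. Their r with the mean log2 level of the 5 leukocyte markers was 0.974 for Csf3r, 0.958 for Cxcr2 and 0.940 for Cxcr4, against 0.711 for Csf3, and the r with Cdh1 was -0.870, -0.888, -0.872 and -0.656 in the same order. Relative to the leukocyte markers, Cxcr2 averaged -0.20 ± 0.13 in entinostat, -0.33 ± 0.13 in the anti-PD-1 combination, -0.14 ± 0.24 in the anti-CTLA-4 combination, -0.27 ± 0.25 in the triple combination and -0.46 ± 0.42 in vehicle on the log2 scale (SD). The groups overlap on this scale, and the lowest value was in vehicle. The part of leukocyte content in the receptor differences was not tested otherwise.

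**Figure D4:**
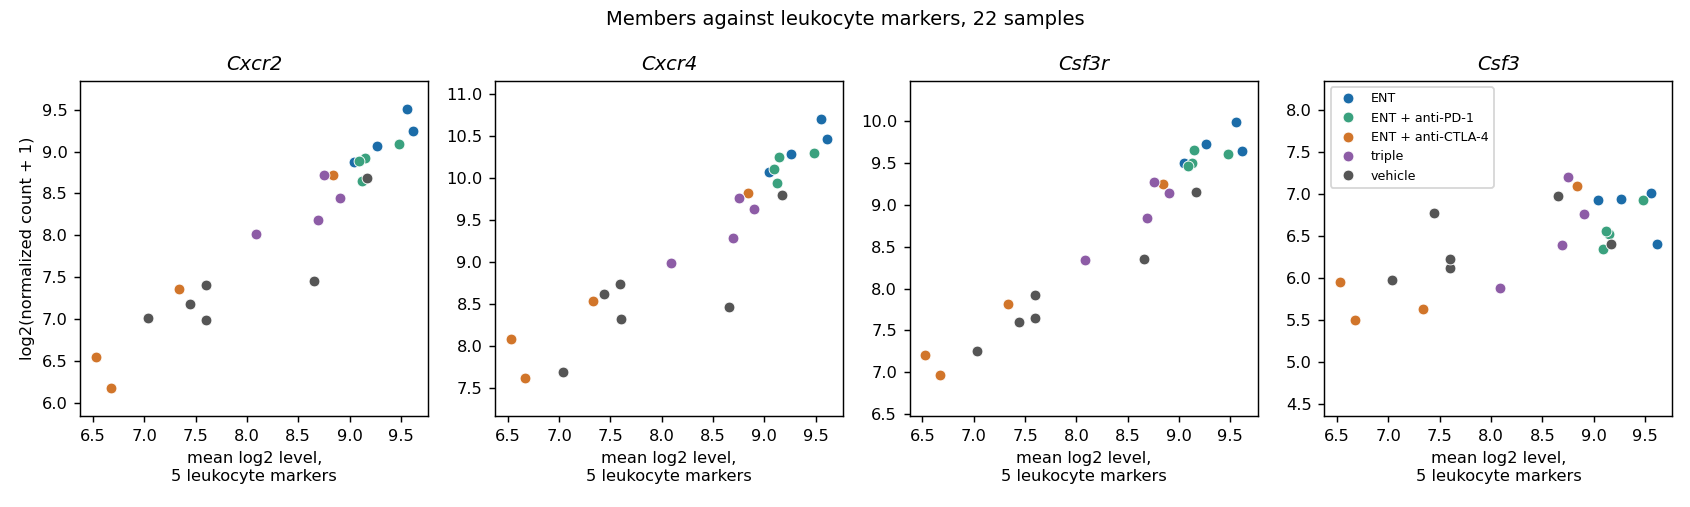
Log2(normalized count + 1) of each gene (y axes, each spanning 4 units) against the mean log2 level of 5 leukocyte markers (x axes) in the 22 samples, coloured by treatment. The receptors rise along 1 line through all groups, and Csf3 spreads around a shallower one.

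Ligands and partners of the receptors were read from lists written for this set of genes. Of the 3 tested CXCR2 ligands, 2 were called higher in entinostat than in vehicle and 1 did not pass, against 36.2% called higher over all genes. Their median log2 fold change was 1.41 against 0.50 over all genes. Cxcl3 averaged 98.4 normalized counts in entinostat and 38.0 in vehicle (1.51 ± 0.44, limma adjusted p 0.0154). Cxcl2 averaged 3283 and 1442 (1.41 ± 0.46, 0.0213), and Cxcl1 2933 and 1818 (0.70 ± 0.32, 0.0871).

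In the anti-CTLA-4 combination all 3 were called lower than in entinostat, against 42.6% of all tested genes. Among them was Cxcl2 (1151 against 3283 normalized counts, -1.92 ± 0.50, limma adjusted p 0.00564). In the anti-PD-1 combination only Cxcl2 was called higher than vehicle (3507 against 1442, 1.53 ± 0.46, 0.0281). Of the other chemokines listed, Cxcl5 and Pf4 stayed below the background limit in all group means.

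The main ligand of CXCR4, Cxcl12, was not analysed here. Of 4 tested partners of CXCR4 in marrow retention, none was higher in entinostat than in vehicle and 1 was lower, Mif, a cytokine that also binds CXCR4 (1172 against 1467 normalized counts, -0.32 ± 0.12, limma adjusted p 0.0390). Itga4, the alpha chain of the integrin VLA-4, had 36.1 against 15.9 normalized counts, near background (1.09 ± 0.46, 0.0627). Itgb1, its beta chain, differed by -0.26 ± 0.15 (0.167) and Cd74, a receptor for MIF, by 0.67 ± 0.86 (0.523).

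In the wider family of colony-stimulating factors, 2 of 3 tested genes were called higher in entinostat than in vehicle, against 36.2% of all tested genes. Their median log2 fold change was 1.39 against 0.50 over all genes. Csf1, the growth factor of macrophages, averaged 878 and 272 normalized counts (1.76 ± 0.29, limma adjusted p 0.00174), and Csf2ra, a chain of the GM-CSF receptor, 107 and 47.1 (1.39 ± 0.55, 0.0495). Csf1r averaged 322 and 229 (0.60 ± 0.40, 0.227). Csf2 (GM-CSF) stayed below the background limit in all groups.

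All 6 tested genes on the list of inducers of G-CSF, which includes the receptor gene Il17ra, were called higher in entinostat than in vehicle. Over all tested genes 36.2% were called higher. The list had a median log2 fold change of 1.40 against 0.50 over all genes and 1.49 for the 5 leukocyte markers. Csf3 itself was not called. Il1b averaged 13690 and 4953 normalized counts (1.67 ± 0.40, limma adjusted p 0.00796), Il17ra 223 and 103 (1.12 ± 0.18, 0.00174), Il23a 841 and 382 (1.20 ± 0.31, 0.0104) and Tnf 1396 and 540 (1.55 ± 0.45, 0.0151). In the anti-CTLA-4 combination all 6 were lower than in entinostat, with a median of -1.70 against -0.67 over all genes, of which 42.6% were called lower. In the anti-PD-1 combination 5 were higher than in vehicle, with a median of 1.39 against 0.29 over all genes, of which 20.5% were called higher.

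Of 10 tested genes that signal below the G-CSF receptor, 7 were higher in entinostat than in vehicle and none lower, against 36.2% higher over all tested genes. Their median log2 fold change of 0.61 was near that over all genes (0.50). Cebpb averaged 2310 and 1196 normalized counts (0.99 ± 0.22, limma adjusted p 0.00769) and Syk, a kinase of myeloid receptors, 454 and 162 (1.68 ± 0.42, 0.00911). Pik3cg, a leukocyte kinase subunit and 1 of these 7, averaged 32.0 and 12.7 (1.34 ± 0.33, 0.00904), near the background limit in entinostat and below it in vehicle. Stat3, the main relay of the receptor, moved by 0.33 ± 0.11 (0.0218), and Stat5a by 0.04 ± 0.22 (0.864).

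On a list of neutrophil traffic genes, made of adhesion molecules and metalloproteinase genes such as Mmp9, 7 of 8 tested were called higher in entinostat than in vehicle. Over all tested genes 36.2% were called higher. The list had a median log2 fold change of 1.46 against 0.50 over all genes. Selplg averaged 510 and 172 normalized counts (1.78 ± 0.40, limma adjusted p 0.00769). Mmp9 averaged 469 and 183 (1.48 ± 0.40, 0.0108) and Itgal, a chain of the integrin LFA-1, 162 and 65.2 (1.61 ± 0.49, 0.0176). In the triple combination against vehicle, none of the genes in these lists was called, as none of the 420 tested genes was.

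Markers of other cells also moved. Of 3 tested endothelial markers 2 were called higher in entinostat than in vehicle, and Cdh5 was not called. These 2 were Sele and Selp, the selectins on which neutrophils roll (2.22 ± 0.66, limma adjusted p 0.0161, and 3.00 ± 0.95, 0.0200). Among all tested genes 36.2% were called higher and 3.81% lower. Summed endothelial markers ran from 144 to 668 normalized counts in entinostat and from 19.5 to 222 in vehicle. Of 4 tested fibroblast markers 1 was called higher, Col3a1 (1.70 ± 0.63, 0.0390), and 1 lower, Pdgfra (-0.64 ± 0.19, 0.0167). Col1a2 and Fn1 were not called. Summed fibroblast markers ran from 773 to 1348 in entinostat and from 498 to 1589 in vehicle. The part of these cells in the receptor levels was not tested.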

How the data were processed

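Transcripts were counted with the NanoString nCounter Mouse Myeloid CodeSet in 22 samples of tumour G-MDSCs, as the labels' protocols state. The deposited signal values are normalized barcode counts, 1 column per sample, as deposited by the authors. How they were normalized, and with which software, is not given in the sources used here. Limma is listed in the submitters' processing notes, with neither version nor purpose. Columns were matched to samples by their titles. From these values, log2(normalized count + 1) was modelled as 5 group means over the 22 samples (R 4.3.3, limma 3.58.1), and p-values were adjusted (Benjamini-Hochberg) over 420 endogenous genes. The other 235 were left out because in no group did the mean of these log2 values exceed the background limit, which equals 29.3 normalized counts. The limit was set from negative control probes at 2 SD above their log2 mean. In every column the gene values above 1 were whole multiples of 1 step, but in 7 of 22 columns under 95% of all low values were, once up to 32 genes set at 1 and the unscaled controls were included, so the planned count test was left out. Other settings included the pseudocount, filters, scaling, background, sample weights, cartridge, a replicate block and left-out samples. The test was checked on simulated data. Genes named beyond the members were those of the lists and the 5 most correlated with each member. Some genes of the lists are counted but not reported here by name. The members, lists and motifs were chosen with earlier results of these data known. Ranges of depth are given with the results, and Poisson intervals cover counting error only.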

Additional observations from a re-analysis of the deposited data

Results flagged for a closer look

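In 40 sets of values (each gene or ratio in each group), 3 had a sample far from the rest of its group by Dixon's criterion, which chance meets in about 1 in 20. Cxcr2 in vehicle sample 2 stood at 409.04 normalized counts, with the next highest vehicle sample at 175.05. Cxcr4 in the same sample stood at 889.78, with the next at 423.94. Csf3 in entinostat sample 2 was the low one, at 83.55 normalized counts, with the next entinostat sample at 121.42. Vehicle sample 2 also had the highest summed leukocyte markers of its group, at 3707 normalized counts against 841 to 2499 in the other vehicle samples, and their part in these values was not tested.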

How the results depend on the processing

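Of 576 recomputed fold changes and interactions of the 4 genes under alternatives other than leaving out 1 sample, 501 kept their direction and their side of the threshold, and so did 925 of 968 with 1 sample left out. The receptor calls for entinostat against vehicle and for the anti-CTLA-4 combination against entinostat held in every one of 22 fits that left out a sample, and under each alternative that gave a value except scaling to the leukocyte markers. Depth limits Csf3 most, since it rests on as few as 15 barcode counts. The planned count test on recovered barcode counts was not run, because values set at 1 and unscaled controls kept 7 of 22 columns under 95% whole multiples. In simulated data for entinostat against vehicle (420 genes), the test recovered 72% of changes of 1 and 98% of changes of 2 on the log2 scale, with 5 false calls among 220 unchanged genes.

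With a stricter filter on low values, a call was gained for the anti-CTLA-4 combination against entinostat (Csf3 -0.78). With each sample centred on its median, the sign turned for entinostat against vehicle (Csf3 -0.13), the anti-PD-1 combination against vehicle (Csf3 -0.13), the anti-CTLA-4 combination against vehicle (Cxcr4 0.087), the triple combination against vehicle (Csf3 -0.082), the anti-PD-1 combination against entinostat (Csf3 0.00064, Csf3r 0.073), the triple combination against entinostat (Csf3 0.045) and the triple combination against the anti-PD-1 combination (Csf3 0.045). With quantile normalization, the sign turned for entinostat against vehicle (Csf3 -0.20), the anti-PD-1 combination against vehicle (Csf3 -0.23), the anti-CTLA-4 combination against vehicle (Cxcr4 0.073), the triple combination against vehicle (Csf3 -0.16), the anti-CTLA-4 combination against entinostat (Csf3 0.032), the triple combination against entinostat (Csf3 0.046), the triple combination against the anti-PD-1 combination (Csf3 0.076) and the anti-CTLA-4 combination against the anti-PD-1 combination (Csf3 0.062). With sample weights, a call was gained for entinostat against vehicle (Csf3 0.50), the triple combination against vehicle (Csf3r 1.08, Cxcr2 1.02, Cxcr4 0.84), the anti-CTLA-4 combination against entinostat (Csf3 -1.09), the triple combination against entinostat (Csf3r -0.91, Cxcr2 -0.99, Cxcr4 -1.12), the triple combination against the anti-CTLA-4 combination (Csf3 0.72, Csf3r 1.49, Cxcr2 1.52, Cxcr4 1.23), the anti-CTLA-4 combination against the anti-PD-1 combination (Csf3 -0.83) and the interaction (Csf3 0.99, Csf3r 1.71, Cxcr2 1.92, Cxcr4 1.57). With only the groups compared in the fit, the call was lost for the anti-CTLA-4 combination against the anti-PD-1 combination (Csf3r -1.74, Cxcr2 -1.69, Cxcr4 -1.64). With cartridge as a block, the sign turned for the triple combination against vehicle (Csf3 -0.0078). The call was lost for the anti-PD-1 combination against vehicle (Csf3r 1.67, Cxcr2 1.43, Cxcr4 1.64) and the anti-CTLA-4 combination against the anti-PD-1 combination (Csf3r -1.95, Cxcr2 -1.69, Cxcr4 -1.83). A call was gained for the anti-CTLA-4 combination against entinostat (Csf3 -1.41). Within cartridge 1, the sign turned for the triple combination against vehicle (Csf3 -0.28). The call was lost for the anti-PD-1 combination against vehicle (Csf3r 1.53, Cxcr2 1.33, Cxcr4 1.55). A call was gained for entinostat against vehicle (Csf3 0.66). With the replicate block (numbers of the titles as a block), the sign turned for the triple combination against entinostat (Csf3 0.20) and the triple combination against the anti-PD-1 combination (Csf3 0.43). A call was gained for the anti-CTLA-4 combination against entinostat (Csf3 -1.07) and the triple combination against the anti-CTLA-4 combination (Csf3r 1.59). Without vehicle samples V1 and V2, the call was lost for the anti-PD-1 combination against vehicle (Csf3r 1.45, Cxcr2 1.35, Cxcr4 1.58). Without triple sample a and vehicle sample 3, the sign turned for the triple combination against the anti-PD-1 combination (Csf3 0.19). A call was gained for the anti-CTLA-4 combination against entinostat (Csf3 -0.78). Scaled to the leukocyte markers, chosen after the data had been seen, the sign turned for entinostat against vehicle (Csf3 -1.04), the anti-PD-1 combination against vehicle (Csf3 -1.11), the anti-CTLA-4 combination against entinostat (Csf3 1.24, Csf3r 0.12, Cxcr2 0.053, Cxcr4 0.15) and the anti-CTLA-4 combination against the anti-PD-1 combination (Csf3 1.32, Csf3r 0.12, Cxcr2 0.18, Cxcr4 0.23). The call was lost for entinostat against vehicle (Csf3r 0.27, Cxcr2 0.27, Cxcr4 0.33) and the anti-PD-1 combination against vehicle (Csf3r 0.27, Cxcr2 0.14, Cxcr4 0.25). The cause of these changes was not tested.

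Leaving out 1 sample in turn gave these ranges where a call or a sign changed. For the anti-PD-1 combination against vehicle they were Csf3r 1.42 to 1.80, Cxcr2 1.34 to 1.68, Cxcr4 1.36 to 1.79. For the anti-CTLA-4 combination against vehicle they were Csf3r -0.66 to 0.10, Cxcr2 -0.76 to 0.087, Cxcr4 -0.53 to 0.21. For the triple combination against vehicle they were Csf3 -0.066 to 0.37. For the anti-CTLA-4 combination against entinostat they were Csf3 -1.13 to -0.60. For the triple combination against the anti-CTLA-4 combination they were Csf3 0.30 to 0.87, Csf3r 0.81 to 1.57, Cxcr2 0.80 to 1.65, Cxcr4 0.61 to 1.35. For the triple combination against the anti-PD-1 combination they were Csf3 -0.25 to 0.19. For the anti-CTLA-4 combination against the anti-PD-1 combination they were Csf3 -0.90 to -0.37. For the interaction they were Csf3 0.53 to 1.10, Csf3r 0.97 to 1.73, Cxcr2 1.09 to 1.93, Cxcr4 0.84 to 1.58. Same-numbered samples did not deviate together more than others (median correlation -0.071 over 24 pairs, 10 of them over 0.1, against -0.051 over 76 other pairs). Correlations of the same-numbered pairs ran from -0.54 to 0.53, too wide to settle whether the numbers pair the samples. The mean log2 ratio of Cxcr2 to Cxcr4 in entinostat was -1.20 with a pseudocount of 10 and -1.23 after background subtraction. Of the 5 genes most like each member, centring kept 3 for Cxcr4 and 2 for Csf3.

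Counts of calls over all 420 genes also moved. For entinostat against vehicle there were 168, against 242 higher and 56 lower with sample weights, 51 and 3 without vehicle samples V1 and V2, and 80 to 207 in all with 1 sample left out (80 without entinostat sample 3, 98 without entinostat sample 2). For the anti-PD-1 combination against vehicle there were 92, against 43 with no filter, 185 higher and 41 lower with sample weights, 3 with cartridge as a block, 0 within cartridge 1 or without vehicle samples V1 and V2, 225 scaled to the leukocyte markers, and 1 to 140 with 1 sample left out. For the anti-CTLA-4 combination there were 203 against entinostat (59 higher and 261 lower with sample weights, 5 and 114 without its sample 1, 2 and 119 without its sample b). Against the anti-PD-1 combination it had 130 (51 and 237 with sample weights, 0 with only those groups fitted, 2 with cartridge as a block, 274 scaled to the leukocyte markers, 49 to 207 with 1 sample left out). Comparisons with no call gained calls with sample weights: 2 higher and 16 lower for the anti-CTLA-4 combination against vehicle, 115 and 11 for the triple combination against vehicle, 8 and 98 for it against entinostat, 193 and 14 for it against the anti-CTLA-4 combination, 1 and 2 for the anti-PD-1 combination against entinostat, and 220 and 19 for the interaction. The replicate block gave 6 higher for the triple combination against vehicle, 70 higher and 3 lower for it against the anti-CTLA-4 combination, and 54 and 2 for the interaction. Without triple sample a and vehicle sample 3, the triple combination against the anti-CTLA-4 combination had 34 higher and 1 lower. Without anti-CTLA-4 combination sample a it had 180 higher and 11 lower, and the interaction 145 and 7. Scaling moved the split of higher and lower calls, which was 152 and 16 for entinostat against vehicle, to 95 and 81 with centring and to 94 and 83 with quantile normalization. The split was 86 and 6 for the anti-PD-1 combination against vehicle (71 and 33 with quantile normalization), 24 and 179 for the anti-CTLA-4 combination against entinostat (121 and 104 with centring), and 6 and 124 for it against the anti-PD-1 combination (29 and 99 with centring).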
